A study of Homo sapiens with 3 samples.

Results

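The 34 genes described here encode the machinery that moves cargo along the primary cilium: the intraflagellar transport complexes IFT-A and IFT-B, the kinesin and dynein-2 motors, the BBSome, and 3 proteins of ciliary membrane entry. They were chosen by name and grouped into 7 complexes or functions, and each symbol matched 1 of the 60504 genes of the expression table. RNA-Seq libraries came from DLD1, a human colorectal cancer cell line. There was 1 library of wild type DLD1 cells (control) and 1 library from each of 2 BEX2-/- clones, DLD1 KO1 and DLD1 KO2, made by CRISPR/Cas9 editing, described as carrying a frameshift deletion at the start of the BEX2 coding sequence, and called clone 1 and clone 2 here. No other treatment or time was given for any library. The edited cells were screened as clones, but the labels do not say whether KO1 and KO2 are separate lines, and what is particular to the cells of a knockout library cannot be told apart from the knockout in it.

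A primary cilium is a thin, microtubule-based projection that many cells carry as an antenna. IFT-B trains pulled by kinesin-2 carry cargo towards the tip, IFT-A trains pulled by dynein-2 return to the base, and the BBSome rides on these trains and takes membrane receptors out of the cilium. In vertebrates the hedgehog receptor PTCH1, its partner SMO and the GLI transcription factors pass through the cilium, so hedgehog signaling, the pathway the study examined after BEX2 loss, needs this transport.

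All 34 genes were detected in all 3 libraries, at 0.127 to 17.1 FPKM (fragments per kilobase of transcript, scaled to the mapped fragments of the library). No gene met the fold change threshold of 1.5 in the same direction in both clones, and none passed the test across all genes. KIF3A, a motor subunit of kinesin-2, was 1.37-fold and 1.40-fold of the control in clones 1 and 2, and ARL3, a GTPase that releases lipidated cargo in the cilium, was 0.790-fold and 0.842-fold. IFT46, BBS5, BBS9 and IFT172 were the genes in which the highest library exceeded the lowest by at least 1.5-fold. In each of these 4 the clones differed from each other more than the clone mean differed from the control. The 4 were picked by their spread, and the share of all genes with this pattern was not computed.

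The table gives no read counts, but whole reads could be recovered from FPKM, exon length and depth for 31 of the 34 genes. The depths recovered were 47458849 reads for the control, 35593989 for clone 1 and 47722380 for clone 2, and the 31 genes held 37 to 2373 reads per library. BEX2 itself (chromosome X) had 0 FPKM in the control as in both clones, so its mRNA gave no check of the labels. A count of 0 allows up to 3 reads, which here would be 0.0538 FPKM in the control, 0.0717 in clone 1 and 0.0535 in clone 2. The study reported relatively high BEX2 protein in DLD1 and checked the knockout by western blot and sequencing. These RNA values do not measure protein. Epithelial markers were present, with EPCAM at 265, 282 and 220 FPKM and KRT8 at 538, 510 and 611 FPKM, while VIL1 differed widely between libraries (3.61, 13.2 and 0.221 FPKM). All 6 fibroblast markers and the leukocyte markers PTPRC, CD3E, CD68 and LYZ were under 1 FPKM in every library, and the summed fibroblast markers were 0.136, 0.634 and 0.129 FPKM, the middle value being mostly PDGFRB in clone 1 (0.602 FPKM). PTPRC, LYZ, COL3A1 and LUM were at 0. Of the 13 genes of motile cilia, 11 were under 1 FPKM in the control, 11 in clone 1 and 10 in clone 2. The exceptions were CCNO at 8.01, 6.55 and 10.2 FPKM, MCIDAS at 2.32, 1.95 and 2.40 FPKM, and RSPH1 in clone 2 (1.21 FPKM).

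Promoters of cilium genes often carry an X-box, the site bound by RFX transcription factors. The half-site GTTGCCNNG was searched on both strands in the RefSeq promoters (GRCh38.p14), 250 bases before to 50 bases after each start, in which 31 of the 34 genes were found. WDR35, IFT22 and BBS9 had no entry. The half-site was in 11 of the 31 genes (35.5%), against 6.16% of all 27305 genes of the promoter table, 7.22% of the 8287 of them that passed the filter on low expression, and 27 of 67 genes of the other cilium lists (40.3%). It was in both dynein-2 genes, 3 of 6 IFT-B core genes, 3 of 6 BBSome genes, 2 of 6 IFT-A genes, 1 of 3 genes of membrane entry, and in 0 of 4 IFT-B peripheral and 0 of 4 kinesin genes. All 11 genes had a match within 50 bases of a start, and IFT74 had a further match 240 bases before another start. The matches nearest a start are shown because they are the sequence these 11 genes share, in windows of 29 bases with the half-site in capitals, each written 5′ to 3′ on the strand that holds it. A match is a description of letters and was not tested for binding.
IFT122, chr3:129440202-129440230, plus strand: gcgcatgtacGTTGCCAGGggtaacgcag
TULP3, chr12:2890841-2890869, plus strand: gtggaacgcgGTTGCCAGGaggcgggacg
IFT74, chr9:26956374-26956402, plus strand: tcccgcccccGTTGCCGGGatacgccgcg
IFT81, chr12:110124347-110124375, plus strand: cctagcaaccGTTGCCAAGgagctcgact
IFT88, chr13:20567160-20567188, minus strand: acgccgagccGTTGCCAAGcgcggaatcc
DYNC2H1, chr11:103109428-103109456, minus strand: gagcttcgcgGTTGCCAGGggtagtcgct
DYNC2LI1, chr2:43774018-43774046, minus strand: ggccttctggGTTGCCATGggagcgacgt
BBS1, chr11:66510626-66510654, plus strand: ggcggggccgGTTGCCAGGacgacgcctg
BBS5, chr2:169479470-169479498, plus strand: gaggcggcccGTTGCCTTGgagccagaga
TTC8, chr14:88824607-88824635, plus strand: gccgtcgcggGTTGCCGGGcagagtcgga
ARL6, chr3:97764724-97764752, plus strand: agaagctcctGTTGCCAAGggaacggtgc

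IFT122, TULP3, BBS1 and DYNC2H1 shared the same 9 letters of the half-site, IFT81, IFT88 and ARL6 shared another, and IFT74 and TTC8 a further one. Of the listed RFX factors, RFX5 was at 7.78, 8.53 and 12.6 FPKM and RFX1 at 2.60, 2.53 and 2.69 FPKM in the control, clone 1 and clone 2. RFX7 was at 1.41, 1.60 and 1.59 FPKM, RFX2 at 0.924, 1.01 and 0.862 FPKM, and RFX4 at 0 in every library. Which of them binds these sites was not tested. RFX3 was at 0.209, 0.337 and 0.488 FPKM. FOXJ1, a regulator of motile cilia, was at most 0.0213 FPKM. Of the listed genes of motile cilia, CCNO and MCIDAS were above 1 FPKM in every library.

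The IFT-A complex, which returns cargo to the ciliary base and admits membrane receptors, is represented by 7 genes. TULP3, the adaptor that links IFT-A to receptors, was the most abundant of all 34 genes at 14.8 FPKM in the control, 17.1 in clone 1 and 15.6 in clone 2. IFT43 was at 3.43, 3.39 and 3.71 FPKM. IFT122 was at 2.16, 2.22 and 1.80 FPKM. The clones lay on either side of the control for IFT43 and IFT122, but both above it for TULP3. TTC21B, a large repeat protein of the complex, was at 1.38, 1.79 and 1.23 FPKM. IFT140 was at 1.16, 0.967 and 1.33 FPKM. WDR19 was at 1.02, 1.36 and 0.997 FPKM. In each of these the clones lay on opposite sides of the control, and IFT140 ran against the other 2. WDR35 was at 0.729, 0.670 and 0.682 FPKM, under the filter. The control read count of WDR19 was 429, that of clone 1 also 429 at a lower depth, and that of clone 2 was 422.

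The IFT-B core, the stable part of the trains that leave the base, is represented by 7 genes. IFT52, a scaffold of the core, was at 8.82, 9.58 and 8.44 FPKM in the control, clone 1 and clone 2. IFT74 was at 5.15, 5.16 and 4.86 FPKM. IFT81, which with IFT74 binds tubulin as cargo, was at 1.23, 1.58 and 1.22 FPKM. Thus the FPKM of IFT81 stood well under that of its partner in every library. Comparisons of levels between genes, here and below, also depend on the exon length by which FPKM divides. IFT22, a small GTPase of the complex, was at 4.33, 3.87 and 3.45 FPKM. IFT27, the GTPase that links IFT-B to BBSome exit, was at 3.36, 3.68 and 3.61 FPKM. IFT88, without which cilia do not form in mice, was at 1.92, 2.31 and 2.56 FPKM. Both clones were under the control for IFT22 and above it for IFT27 and IFT88. IFT46 was at 2.5, 1.66 and 2.37 FPKM, from 453, 226 and 432 reads. Clone 1 was the low library and clone 2 was near the control.

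The 4 peripheral IFT-B genes encode the subunits that join the core on its outer side. IFT57 was at 7.96, 7.33 and 7.75 FPKM. IFT20, which also sits at the Golgi, was at 3.36, 3.88 and 3.41 FPKM. IFT80 was at 1.18, 1.25 and 1.09 FPKM. These 3 genes varied little between the libraries. IFT172, the largest IFT-B protein, was at 1.15, 1.45 and 0.863 FPKM, from 459, 434 and 346 reads, with clone 1 above and clone 2 under the control.

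The motors run in both directions along the ciliary microtubules. KIF3A, which pairs with KIF3B as the motor of kinesin-2, was at 1.74 FPKM in the control, 2.38 in clone 1 and 2.44 in clone 2, from 566, 581 and 798 reads, so both clones lay above the control and close to each other. KIF3B was at 7.82, 8.85 and 7.78 FPKM. KIFAP3, the accessory subunit that ties the motor to its cargo, was at 1.05, 1.03 and 1.28 FPKM. The level of KIF3B was above that of KIF3A in every library. KIF7, a kinesin that organizes the tip and restrains GLI factors, was at 0.645, 0.573 and 0.758 FPKM, under the filter. DYNC2H1, the heavy chain of dynein-2, was at 0.128, 0.138 and 0.153 FPKM, and its light intermediate chain DYNC2LI1 was at 3.40, 3.68 and 3.23 FPKM. The heavy chain was thus far under its partner chain in all 3 libraries.

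The BBSome is a coat of 8 subunits, of which 7 are members and BBIP1 was taken from the list of other transport subunits. BBS7 was the most abundant of the 7 at 4.24, 4.85 and 5.19 FPKM. TTC8 was at 3.62, 3.61 and 2.99 FPKM. BBS2, which pairs with BBS7, was at 2.76, 2.98 and 2.14 FPKM. Clone 2 was the low library for TTC8 and BBS2 and the high one for BBS7. BBS4 was at 2.13, 2.34 and 2.04 FPKM. BBIP1 was at 1.46, 1.94 and 1.21 FPKM. BBS9, the scaffold of the coat, was at 0.925, 1.11 and 0.585 FPKM, from 272, 245 and 173 reads. Clone 2 was low and clone 1 high for all 3 of these genes. BBS5, which binds phosphoinositides, was at 0.985, 0.567 and 1.03 FPKM, from 213, 92 and 223 reads, so that clone 1 was low and clone 2 near the control. BBS1, the subunit that contacts ARL6, was at 0.127, 0.169 and 0.171 FPKM from only 37, 37 and 50 reads. BBS1 shares 53.9% of its exon bases (GENCODE 29) with the readthrough gene AP002748.4 on the same strand, BBS5 shares 21.9% with AC093899.2 and IFT80 27.2% with AC079594.2, so the levels of these 3 genes are uncertain. In all, 16 of the 34 genes share some exon bases with another gene, and whether the counting used strand is not given in the sources used here.

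Of the genes of ciliary membrane entry, INPP5E, a lipid phosphatase that sets the phosphoinositides of the ciliary membrane, was at 11.5, 11.0 and 9.74 FPKM. ARL3 was at 7.92 FPKM in the control, 6.26 in clone 1 and 6.67 in clone 2, from 1445, 856 and 1224 reads. Both clones lay under the control for both genes. ARL6, the GTPase that recruits the BBSome to membranes, was at 0.705, 0.633 and 0.632 FPKM, with clones nearly equal.

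**Figure D1:**
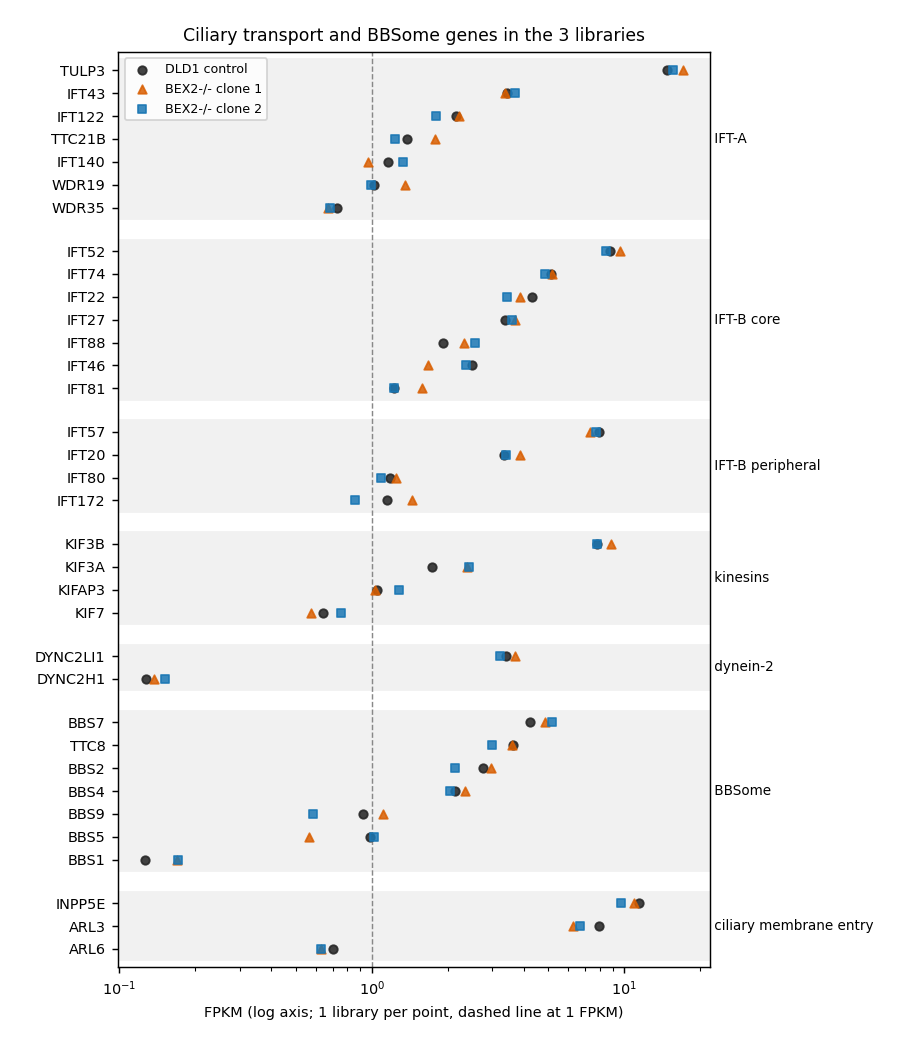
FPKM (log axis) of the 34 genes in the DLD1 control (circles), BEX2-/- clone 1 (triangles) and clone 2 (squares), 1 library per point, grouped by complex. Levels run from 0.127 FPKM (BBS1, control) to 17.1 FPKM (TULP3, clone 1), and the 3 points of a gene lie close together next to this range.

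The levels of the genes spanned a wide range, while the libraries differed little. Past a filter of a mean of at least 1 FPKM (the mean of the control and of the clones' mean), 27 of the 34 genes remained with 11675 of all genes. WDR35, KIF7, DYNC2H1, BBS1, BBS5, BBS9 and ARL6 were under it. Of the 27 genes, 21 were under the median level of the genes past the filter, 5.70 FPKM over the 3 libraries. TULP3 was above 78.6% of those genes, INPP5E above 69.1% and IFT52 above 64.2%, whereas KIFAP3 was above only 2.56%. Fewer cells that express a gene and less RNA per cell cannot be told apart in these bulk libraries.

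To ask whether loss of BEX2 went with a change of the machinery, the clones were compared with the control by limma on log2(FPKM + 1). The clone mean of KIF3A was 2.41 ± 0.0411 FPKM (SD, n = 2) against 1.74 in the control, a difference of 0.32 ± 0.21 (log2, SE), the lowest unadjusted p of the 27 genes in limma (0.214). For ARL3 the clone mean was 6.46 ± 0.294 FPKM against 7.92, with a log2 difference of -0.26 ± 0.18 and an unadjusted p of 0.239 in limma. For IFT88 the difference was 0.24 ± 0.21, for BBS7 0.20 ± 0.19 and for IFT22 -0.20 ± 0.20 (log2, SE). In limma with Benjamini-Hochberg adjustment, 0 of the 27 genes passed an adjusted p of 0.05, against 0.0% of the 11675 genes, and at an unadjusted p under 0.05 there were 0 of 27 genes and 139 of 11675 (1.19%). These tests rest on the spread between 2 clones with 1 residual degree of freedom, and nothing in the labels says that the libraries came from separate cultures, so the spread may be technical. With 1 control library against 2 clones an exact one-sided permutation test of a gene cannot go below 0.333, and a p that misses the threshold does not show that a level was the same.

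By fold of FPKM + 1, 0 of the 27 genes passed 1.5-fold in clone 1 against the control, where 6.25% of all genes past the filter did. In clone 2 it was 0 of 27 against 8.33%, and between the clones 0 of 27 against 12.4%. At least 1.5-fold higher in both clones were 0 of 27 genes against 0.574%, and at least 1.5-fold lower in both were 0 of 27 against 0.6%. The comparisons of the clones share the control library. FPKM + 1 understates changes of low genes, and most of the 27 are low, so the ratio of FPKM itself was also taken for the 12670 genes with recovered reads and a mean of at least 30, which include 31 of the 34 genes. On that scale 2 of 31 genes passed 1.5-fold in clone 1 (14.7% of all), IFT46 and BBS5, both lower. In clone 2 it was 1 of 31 (18.4% of all), BBS9, lower. Between the clones 3 of 31 passed (23.2% of all), BBS5 higher in clone 2, and BBS9 and IFT172 lower in clone 2. The highest library was at least 1.5 times the lowest for 4 of the 31 genes against 32.1% of all, and for 2 of the 27 genes past the filter against 26.3%. The median of that ratio was 1.22 for the 27 genes and 1.29 for all genes past the filter.

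**Figure D2:**
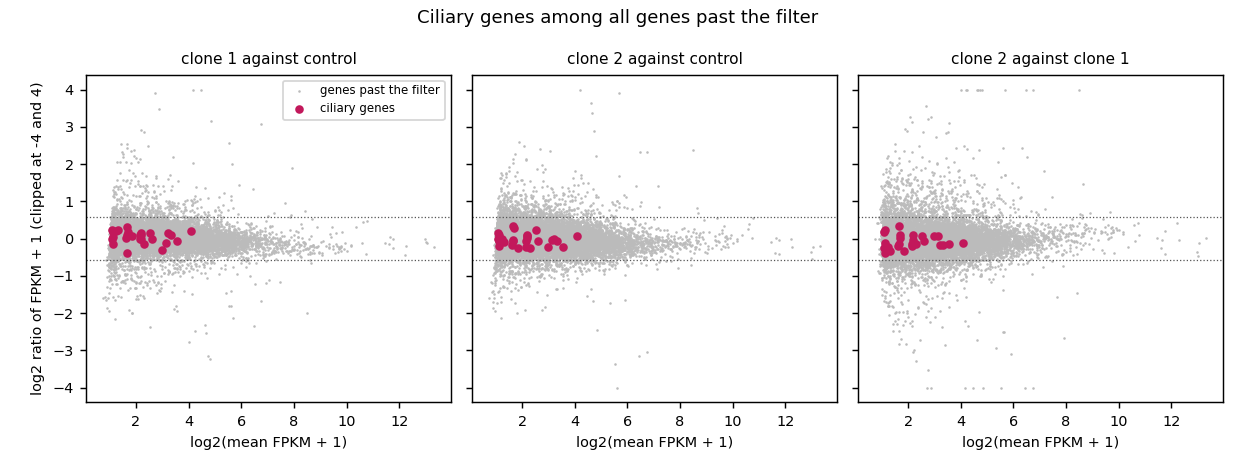
Each grey point is 1 of the 11675 genes past the filter and each coloured point 1 of the 27 ciliary genes, by log2(mean FPKM + 1) on the horizontal axis and log2 ratio of FPKM + 1 on the vertical axis (clipped at -4 and 4), for clone 1 against the control, clone 2 against the control and clone 2 against clone 1. All 27 genes lie between the dotted lines at 1.5-fold, from -0.39 to 0.30 in clone 1 and from -0.26 to 0.33 in clone 2.

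The median log2 ratio of the 27 genes was 0.09 in clone 1 against 0.04 for all genes, and -0.05 in clone 2 against -0.01 for all. Scaling to TPM turned the sign in clone 2 both for the 27 genes (0.0079) and for all genes (0.053). The medians of the complexes varied around those of the 27 genes. In clone 1 the median was 0.11 for the 6 IFT-A genes past the filter, 0.10 for the 7 IFT-B core genes, 0.10 for the 4 peripheral genes and 0.09 for the 4 BBSome genes. In clone 2 it was 0.03, -0.05, -0.05 and -0.13 in the same order, and that of the IFT-B core became 0.0079 under TPM. With WDR35 included, as when no filter was set, the IFT-A medians were 0.0244 in clone 1 and -0.0159 in clone 2, and as FPKM ratios at a mean of at least 30 reads they were 0.0355 and -0.0317. The 3 kinesin genes past the filter had medians of 0.16 in both clones, and DYNC2LI1, the dynein-2 gene past it, had 0.09 and -0.06. ARL3 and INPP5E had a median of -0.18 in clone 1 and -0.22 in clone 2, but the log2 ratio of INPP5E itself in clone 1 went from -0.06 to -0.0059 under TPM.

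The precision of each ratio was taken from the recovered reads, as an exact 95% interval (Clopper-Pearson on the share of reads, scaled by depth). These intervals cover counting error only and compare pairs of libraries, not conditions. Both ratios of a gene share the control library. The share of all genes with intervals on the same side of 1 in both clones was not computed. For KIF3A (chr5:132692628-132737638, minus strand) the FPKM ratio to the control was 1.37 (1.22 to 1.54) in clone 1 and 1.40 (1.26 to 1.56) in clone 2. For IFT88 (chr13:20567069-20691437, plus strand) it was 1.21 (1.07 to 1.36) and 1.34 (1.20 to 1.5). For BBS7 it was 1.14 (1.04 to 1.26) and 1.22 (1.12 to 1.33). In these genes the interval lay above 1 in either clone. For ARL3 (chr10:102673731-102714407, minus strand) the ratio was 0.790 (0.725 to 0.860) and 0.842 (0.780 to 0.910), and for IFT22 it was 0.894 (0.802 to 0.995) and 0.797 (0.719 to 0.882), so that the interval lay under 1 in either clone. These positions are those of GENCODE 29 on GRCh38, as are the ones that follow.

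The 4 genes with the widest spread moved in 1 clone or in opposite ways. IFT46 (chr11:118544528-118572970, minus strand) had a ratio of 0.665 (0.565 to 0.782) in clone 1 and 0.948 (0.829 to 1.08) in clone 2. BBS5 (chr2:169479178-169506655, plus strand) had 0.576 (0.446 to 0.739) and 1.04 (0.859 to 1.26). Both were low in clone 1 while the interval of clone 2 held 1. BBS9 (chr7:33129244-33606068, plus strand) had 1.20 (1.01 to 1.43) and 0.633 (0.520 to 0.768). IFT172 (chr2:27444371-27489789, minus strand) had 1.26 (1.10 to 1.44) and 0.750 (0.650 to 0.864). Here clone 1 was above and clone 2 under the control. Clone 2 against clone 1, the ratio was 1.81 (1.41 to 2.33) for BBS5, 0.527 (0.431 to 0.642) for BBS9 and 0.595 (0.515 to 0.686) for IFT172.

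**Figure D3:**
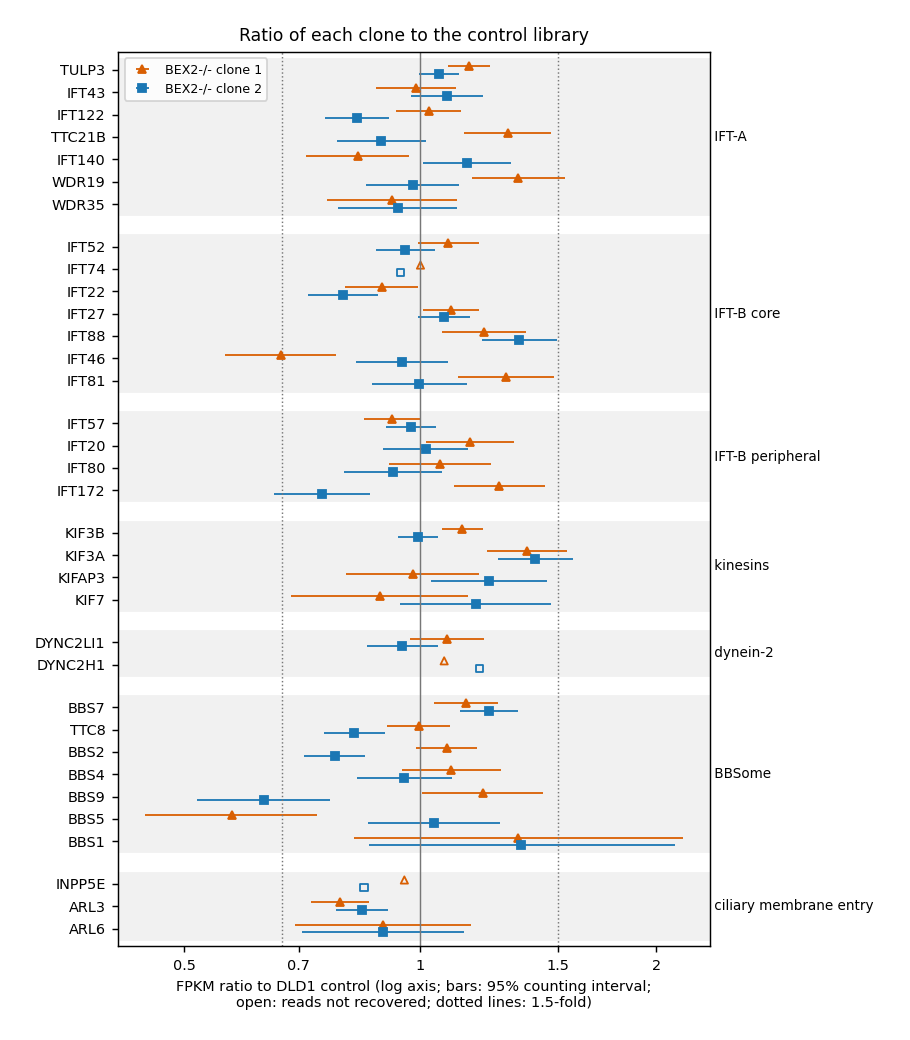
FPKM of clone 1 (triangles) and clone 2 (squares) divided by the control (log axis), with exact 95% counting intervals as bars; open symbols are the 3 genes whose reads were not recovered, and dotted lines mark 1.5-fold. The intervals of KIF3A, IFT88 and BBS7 lie to the right of 1 and those of ARL3 and IFT22 to the left in both clones. The share of all genes for which this holds was not computed. IFT46 and BBS5 are low in clone 1, and BBS9 and IFT172 are low in clone 2.

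The count of intervals that left out 1 was read against the share in all genes with recovered reads. In clone 1 it lay above 1 for 12 of 31 genes (35.7% of the 12670) and under 1 for 5 (25.4%). In clone 2 it lay above 1 for 5 (33.2%) and under 1 for 7 (34.3%). Clone 2 against clone 1, it lay above 1 for 5 (28.0%) and under 1 for 14 (39.7%). The 31 genes had fewer reads, with a median over genes of 495 reads per library against 895 for the 12670 genes, and the intervals of genes with fewer reads are wider. For IFT74, DYNC2H1 and INPP5E no reads were recovered and no interval was given.

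Other genes of the cilium were taken from 8 lists of 87 genes, of which 52 passed the filter. In limma 0 of the 52 passed an adjusted p of 0.05. By FPKM + 1, 1 of the 52 passed 1.5-fold in clone 1, against 6.25% of all genes past the filter, and 6 in clone 2, against 8.33%. Of the 6, 3 were higher and 3 lower, and 0 of the 52 passed in the same direction in both clones on this scale. On FPKM itself, among list genes with recovered reads and a mean of at least 30, RP2 and RFX3 were past 1.5-fold higher in both clones. RFX3, under the filter, had ratios of 1.61 (1.24 to 2.09) and 2.33 (1.86 to 2.94), from 111, 134 and 260 reads. The share of all genes that did so on FPKM was not computed. The other subunits of the member complexes included HSPB11, the small IFT-B subunit that pairs with IFT27, at 43.2, 32.0 and 47.4 FPKM, far above its partner in every library. WDR34, an intermediate chain of dynein-2, was at 53.6, 49.8 and 30.6 FPKM, lower past 1.5-fold in clone 2. WDR34, like DYNC2LI1, thus stood far above the dynein-2 heavy chain. The other dynein-2 subunits of the list were far under WDR34. WDR60 was at 1.51, 1.70 and 1.43 FPKM, and TCTEX1D2 at 0.524, 0.744 and 0.454 FPKM. KIF17, a further motor of the kinesin-2 family, was at 0.980, 0.396 and 0.933 FPKM, low in clone 1.

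RP2, the protein that switches ARL3 off, was at 2.38, 4.16 and 3.63 FPKM, and it was the gene past 1.5-fold in clone 1. It was named after its values were seen, as were CEP290, NEDD9, NEK2, PLK1, KIF2A, FOXJ1, CCNO, MCIDAS, RSPH1 and the RFX factors. RP2 ran opposite to ARL3 in both clones, with FPKM ratios of 1.75 and 1.52 to the control, and its unadjusted p in limma was 0.0689. Of the 7 genes that take the cilium apart before division, 3 passed 1.5-fold of FPKM + 1 in clone 2, against 8.33% of all genes. NEDD9 was at 1.11, 1.07 and 3.57 FPKM, NEK2 at 19.2, 22.4 and 10.6 FPKM and PLK1 at 23.4, 22.4 and 15.3 FPKM. KIF2A was just inside on that scale, at 9.14, 9.46 and 13.98 FPKM, but had an FPKM ratio of 1.53 (1.45 to 1.62) to the control in clone 2. Past the filter were 12 of 17 transition zone genes and 7 of 9 genes of the basal body, and 0 of these passed 1.5-fold of FPKM + 1 in either clone. On FPKM itself CEP290, a transition zone protein, had a ratio of 0.651 (0.574 to 0.737) in clone 2.

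Of the hedgehog components that travel through the cilium, PTCH1, the receptor, was at 0.942, 1.05 and 2.31 FPKM, from 742, 620 and 1826 reads. Its FPKM ratio to the control was 1.11 (0.9998 to 1.24) in clone 1 and 2.45 (2.25 to 2.67) in clone 2. PTCH1 thus passed 1.5-fold of FPKM + 1 in clone 2 only, where 8.33% of all genes past the filter passed. SMO, the transducer, was at 0, 0.0326 and 0.0486 FPKM, from 0, 5 and 10 reads. GLI1, a target and effector of the pathway, was at 0.0451, 0.0869 and 0.0498 FPKM, from 9, 13 and 10 reads. These levels, apart from PTCH1, rest on very few reads and were under those of every ciliary transport gene. GLI2 was at 0.233, 0.569 and 0.133 FPKM. GLI3 was at 0.0137, 0.0122 and 0.0363 FPKM. The read counts of GLI2 and GLI3 could not be recovered. SUFU, which holds GLI factors back together with KIF7, was at 1.71, 2.28 and 1.87 FPKM.

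**Figure D4:**
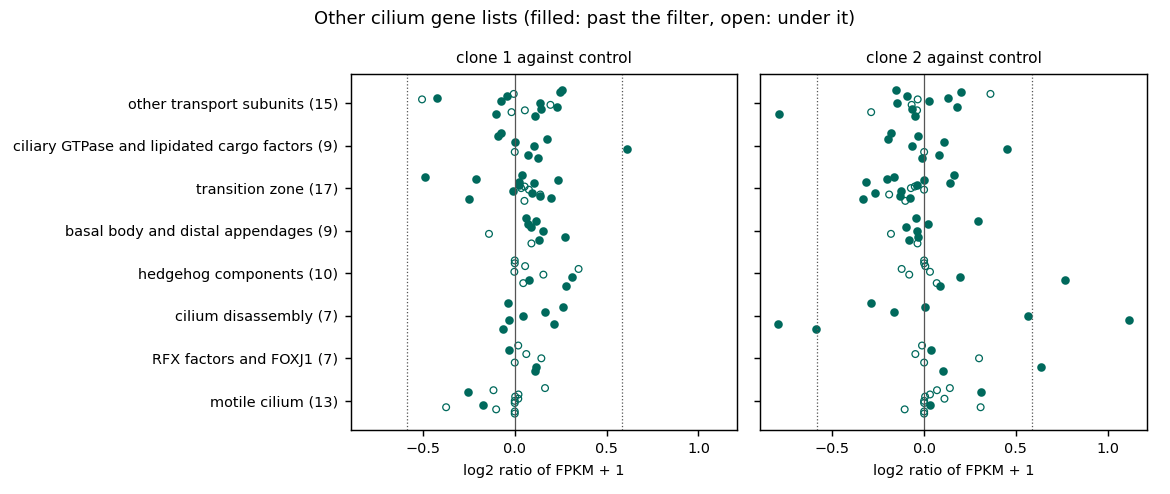
Log2 ratio of FPKM + 1 to the control for each gene of the 8 other cilium lists (gene number in parentheses), in clone 1 (left) and clone 2 (right); filled points passed the filter, open points did not, and dotted lines mark 1.5-fold. Clone 1 has 1 filled point past a line (RP2), and clone 2 has 6, in the transport, hedgehog, disassembly and RFX lists.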

How the data were processed

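The authors deposited 1 table of FPKM values for 60504 genes in 3 libraries prepared with the TruSeq RNA kit. The submitters' processing notes name hg19, Trim Galore 0.3.7, STAR 2.5, Cufflinks 2.2.1 and DESeq 1.22.1. Symbols (56996 matched), exon lengths and positions came from GENCODE 29 (GRCh38), promoters from RefSeq. As FPKM is not a count, limma 3.58.1 (R 4.3.3) with a mean-variance trend was fitted to log2(FPKM + 1) of genes with a mean of at least 1 FPKM, 1 control against 2 clones, with Benjamini-Hochberg adjustment over 11675 genes. Where FPKM × exon length × depth gave whole reads (within 0.02 reads) in all 3 libraries, those reads were used for exact intervals; among low values 98.7% to 98.8% came out whole for genes with 1 transcript and 88.5% to 89.3% for others. Recovery and limma were tested on simulated data.

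All 34 genes are named, with 6 hedgehog genes. Any other cilium gene that passed 1.5-fold of FPKM + 1 in both clones with 1 sign was also to be named. Of the 15 other transport subunits, only BBIP1, HSPB11, WDR34, WDR60, TCTEX1D2 and KIF17 are named. Among these 15, HSPB11 and WDR34 were the most abundant, and KIF17 had the lowest clone 1 ratio. A leukocyte marker other than the 4 named is not reported here. Genes and lists were chosen with earlier results of these data known. Alternatives changed the pseudocount, scaling, filter, fold threshold and trend; the ratios of FPKM without a pseudocount were added after the data were seen.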

Additional observations from a re-analysis of the deposited data

How the results depend on the processing

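Under the alternatives the number of genes called by limma stayed at 0, as did the numbers at least 1.5-fold higher or lower in both clones. Without clone 1 or without clone 2 these numbers were also 0. That result was fixed in advance, because each clone alone already had 0 of 27 genes past 1.5-fold. The number past 1.5-fold against the control, 0 on the scale of FPKM + 1, became 1 in clone 1 with the ratio of FPKM without a pseudocount, and 2 in clone 1 and 1 in clone 2 with the ratio of FPKM at a mean of at least 30 reads. Between the clones it became 1 with a pseudocount of 0.1 FPKM, 1 with scaling to TPM, 1 with the ratio of FPKM without a pseudocount and 3 at a mean of at least 30 reads; a smaller pseudocount shrinks the ratios of low genes less, and the last setting includes BBS5 and BBS9. The median log2 ratio of the genes ranged from 0.000882 to 0.164 in clone 1 and from -0.0633 to 0.00794 in clone 2. Scaling to TPM put the median of all genes at 0.10 in clone 1 and 0.053 in clone 2. Of 54 single ratios, 14 moved by more than the SD between the clones under TPM, 9 without a pseudocount, 6 with a pseudocount of 0.1 and 2 with median scaling. The smallest adjusted p of the genes in limma was 0.942 to 1.0 over the alternatives.

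A limit is that the control has 1 library and each clone has 1. A limma fit without either clone has no residual degree of freedom and was not run. No paired analysis was possible because the control has 1 library and shares at most 1 replicate number with the clones. BBS1 had 37 to 50 reads per library, and a difference within its interval was not detectable at this depth.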
